A study of Mus musculus with 21 samples.

Results

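The 5 genes described here make, hold together, bind or cut hyaluronan, the long unbranched sugar polymer that swells the cardiac jelly between the endocardium and the myocardium of the embryonic heart. They are Has2, Hapln1, Vcan, Cd44 and Hyal2, 5 of the 24421 genes in the count table, picked by symbol for this role and followed through RNA counts and through the GATA4 and open chromatin peaks in the gene body or within 50 kb of it. Has2 spins hyaluronan out through the plasma membrane, versican (Vcan) is a large chondroitin sulfate proteoglycan that holds onto it, and the link protein Hapln1 locks versican to the polymer. Cd44 is a cell surface receptor for hyaluronan, and Hyal2 is a membrane-anchored hyaluronidase that cuts long chains. Mouse embryos without Has2 or versican lack cardiac jelly and endocardial cushions, and loss of Hapln1 gives cushion and septal defects.

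All samples came from E12.5 mouse hearts (E, embryonic day), and the study set GATA4 binding in the endothelial lineage against that in cardiomyocytes. GATA4 was biotinylated under Tie2-Cre (endothelial and endocardial cells, with the cushion mesenchyme that descends from endocardium, and blood cells, in which that driver is also active) or under Tnnt2-Cre (cardiomyocytes) and pulled down with streptavidin, in 3 libraries each from pools of 15 to 20 ventricles. RNA was sequenced from endothelial cells (EC), sorted by a Tie2Cre-activated Rosa26fsTRAP reporter, in 2 libraries of 60K cells each, and from cells labelled cardiomyocytes (CM) in 3 libraries. ATAC, which maps open chromatin, was run on 6 libraries of 20K cells each, 3 labelled Gata4 ko and 3 labelled Gata4 het. All 6 carried a Cdh5CreER driver and a Rosa26mTmG reporter, and their dams received 1 mg tamoxifen at embryonic day 9.5. A further 2 ATAC libraries of 40K Tie2Cre-labelled EC each served as a map of endothelial open chromatin, and CM ATAC was not analysed here. The labels do not give the alleles behind ko and het, and Gata4 deletion was not checked because these 6 libraries have peak lists only. The labels do not tie replicates to separate litters, and p-values measure the spread between these libraries, which may be technical.

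Reads on genes numbered 21682362 and 27660790 in EC and 42948614 to 48393473 in CM. Of the markers, 8 of 8 cardiomyocyte genes were lower in EC, at a summed 374 to 385 CPM (reads of a gene scaled to the library's effective size) in EC and 77390 to 86100 in CM, and 8 of 8 endothelial genes were higher, at 4955 to 5019 in EC and 638 to 734 in CM. CM libraries thus held endothelial transcripts, with no endothelial marker at 0, and in bulk samples fewer cells of a type and less RNA per cell cannot be told apart. Cushion mesenchyme markers were higher in EC in 5 of 6 cases, namely Sox9 (log2 6.27), Twist1 (4.35), Snai2 (4.20), Postn (2.46) and Tbx20 (0.59). Prrx2 was not called (-0.12). The summed level of the 6 was 1665 to 1731 CPM in EC and 465 to 543 CPM in CM, and none was at 0. The CM sum came mainly from Tbx20 (mean 309 CPM) and Postn (166 CPM). Sox9, Twist1 and Snai2 averaged 2.13, 5.02 and 2.27 CPM in CM. The part of these markers in the Has2, Hapln1 and Vcan differences was not tested. Of the endocardial list, which includes Hapln1, 6 of 6 were higher, and of 8 blood and macrophage genes tested 6 were higher and 1 lower, at a summed 47.3 to 47.5 CPM in EC and 10.8 to 12.6 CPM in CM, with the globins Hbb-bt and Hba-a1 at 0 in all libraries. The ribosomal precursor Rn45s took 5.34% and 5.77% of EC reads and 0.118% to 0.200% of CM reads. Depth and Rn45s thus differed along with cell population. A difference in how the EC and CM libraries were made cannot be told apart from cell population in any RNA comparison here. GATA4 lists held 2734 to 25936 peaks in the Tie2-Cre libraries and 3603 to 30447 in the Tnnt2-Cre libraries, and the second library of each lineage was the shortest.

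The matrix-building genes Hapln1, Has2 and Vcan and the hyaluronidase Hyal2 were higher in EC than in CM, and the receptor Cd44 was lower. Hapln1 led with 56.8-fold, Has2 followed at 16-fold, and Vcan was abundant in both cell populations. All 5 passed the test. Such calls were common: 37.5% of the 14851 genes tested were called higher in EC and 40.2% lower, so a call alone says little about these genes, and the sizes and levels carry the description.

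Has2, the main hyaluronan synthase of the embryo, had 99.9 and 107 CPM in EC libraries 1 and 2, against 7.04, 5.84 and 6.42 CPM in CM libraries 1 to 3. Both EC libraries lay far above all 3 CM libraries. The mean was 103 ± 4.74 CPM in EC and 6.43 ± 0.600 CPM in CM (SD, n = 2 and 3), a log2 fold change of 4.0 (SE 0.10) with an adjusted p of 9.07e-11 by edgeR's quasi-likelihood test with Benjamini-Hochberg adjustment. By log2 fold change Has2 stood 223rd from the highest of 14851 genes. The antisense transcript Has2os, which overlaps the gene and was counted by strand, averaged 0.350 CPM in EC and 0.111 CPM in CM.

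Hapln1 is the link protein that pins versican to hyaluronan. It had 1454 and 1491 CPM in EC libraries 1 and 2, against 25.5, 28.2 and 24.1 CPM in CM libraries 1 to 3. The groups were far apart, with little spread within either. The means were 1473 ± 26 CPM in EC and 25.9 ± 2.11 CPM in CM (SD, n = 2 and 3), which is 56.8-fold on the fitted scale (log2 5.83, SE 0.09, edgeR adjusted p = 1.67e-11). Hapln1 ranked 28th by log2 fold change and 35th by CPM among genes in EC, against 6283rd by CPM in CM.

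Vcan, the proteoglycan core, had 1609 and 1611 CPM in EC libraries and 940, 965 and 858 CPM in CM libraries. Every CM library was below both EC libraries, but the gap was narrow beside those of Has2 and Hapln1. Vcan ranked 28th by CPM in EC and 82nd in CM. The means of 1610 ± 1.57 CPM in EC and 921 ± 56.0 CPM in CM (SD, n = 2 and 3) gave a log2 fold change of 0.81 (SE 0.08, edgeR adjusted p = 2.39e-06), and against a threshold of 2-fold the adjusted p was 1. Counts are per gene, so versican splice forms with more or fewer chondroitin sulfate chains are not separated.

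Cd44, the receptor, ran the other way, with 37.5 and 36.7 CPM in EC libraries and 57.9, 65.4 and 71.7 CPM in CM libraries. All CM libraries were above both EC libraries. The means were 37.1 ± 0.586 CPM in EC and 65.0 ± 6.94 CPM in CM (SD, n = 2 and 3), a log2 fold change of -0.81 (SE 0.10, edgeR adjusted p = 2.37e-05) that was not called against a 2-fold threshold (adjusted p = 1). Of 10 epicardial, fibroblast and mural marker genes, Wt1, Tbx18, Upk3b, Upk1b, Cspg4 and Dcn were lower in EC like Cd44, and Tcf21, Pdgfra, Pdgfrb and Col1a1 were higher. Summed over the list, these markers gave 725 to 747 CPM in EC and 465 to 483 CPM in CM, none was at 0, and their part in the Cd44 difference was not tested.

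Hyal2, which cuts hyaluronan at the cell surface, had 57.7 and 53.8 CPM in EC libraries and 14.4, 14.1 and 15.2 CPM in CM libraries. EC libraries were all above CM libraries, with means of 55.8 ± 2.76 CPM in EC and 14.5 ± 0.588 CPM in CM (SD, n = 2 and 3). The log2 fold change was 1.94 (SE 0.09), or 3.84-fold, with an edgeR adjusted p of 7.68e-09.

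**Figure D1:**
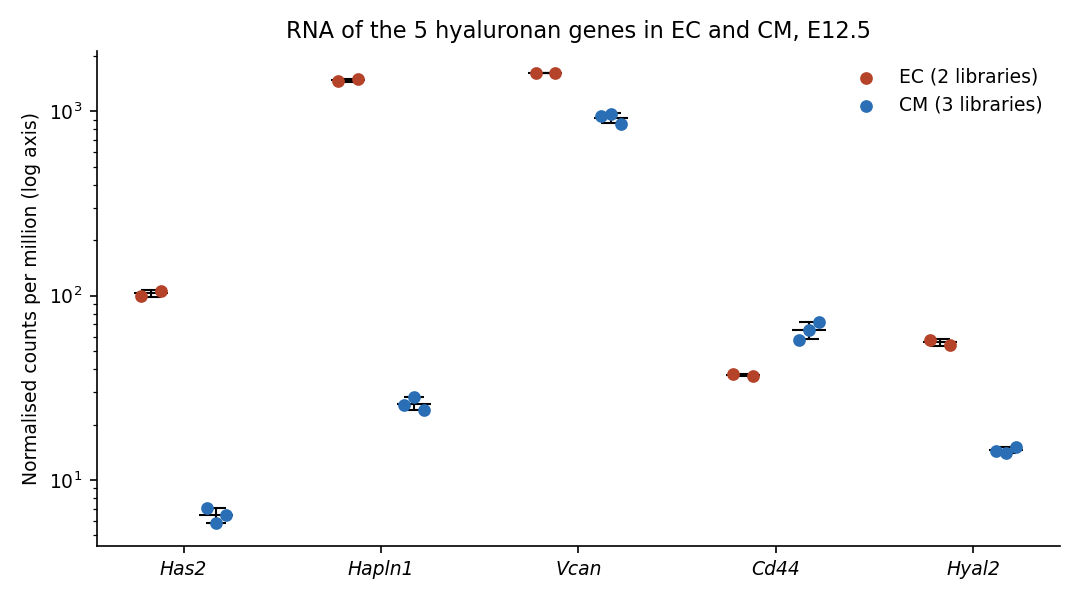
Normalised counts in CPM (log axis) of the 5 genes in each RNA library at E12.5, with EC left of CM; points are libraries (2 EC, 3 CM), and horizontal bars with whiskers are the mean and SD. The EC points lie above the CM points for Has2, Hapln1, Vcan and Hyal2 and below them for Cd44, and the gap is widest for Hapln1.

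Per kilobase of transcript, the order of the genes differed between the cell populations. In EC, Hapln1 averaged 291 RPKM, Vcan 110, Hyal2 30.2, Has2 24.3 and Cd44 6.56. In CM, Vcan led at 62.7 RPKM, and Cd44 (11.5), Hyal2 (7.87), Hapln1 (5.13) and Has2 (1.52) followed. No neighbours in either order overlapped between libraries, which was not tested further. The genes nearest in profile, by Euclidean distance on log2(CPM + 0.5) over the 5 libraries, were Cmtm3 (0.39) and Sncaip (0.40) for Has2, and Lars2 (1.07) and Anp32b (1.40) for Hapln1. They were Sparc (0.21) and Ctnnb1 (0.23) for Vcan, Chn1 (0.16) and Zfp46 (0.18) for Cd44, and Cdr2l (0.11) and Mlxip (0.16) for Hyal2.

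Other genes of hyaluronan and versican biology were mostly higher in EC as well. Of 75 tested members of 9 lists, counting the 5 genes themselves, 51 were higher in EC, 12 were lower and 12 were not called, with a median log2 fold change of 0.92, against -0.06 over all genes tested. Over all 14851 genes tested, 37.5% were called higher and 40.2% lower, and each list count below is to be read beside those shares. The list counts are a description, and no test was run on the lists.

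Among the enzymes that make hyaluronan and its sugar precursors, 5 of 9 tested were higher and 1 was lower. Ugdh, which makes the UDP-glucuronic acid that hyaluronan synthases use, averaged 103 ± 0.400 CPM in EC and 27.4 ± 1.01 CPM in CM (log2 1.91). Gfpt1, which opens the hexosamine pathway, was higher (log2 1.01), and Ugp2, which makes UDP-glucose, was lower (log2 -1.02). The related synthase Has3 averaged 0.896 CPM in EC and 1.02 CPM in CM and was not called, and Has1 did not pass the filter on low counts. Of the breakdown genes, 6 of 8 tested were higher. The cell surface hyaluronidase Tmem2 reached 1309 ± 9.48 CPM in EC against 391 ± 56.6 CPM in CM (log2 1.74). Hyal1, the lysosomal hyaluronidase, was at 9.12 CPM in EC and 1.52 CPM in CM (log2 2.59), and the lysosomal beta-glucuronidase Gusb was higher (log2 1.68), while Cemip, a hyaluronan-degrading protein, was lower (log2 -0.99).

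Of 8 receptors 5 were higher and 3 lower. Stab1, a scavenger receptor that clears hyaluronan, averaged 219.5 ± 19.5 CPM in EC and 35.3 ± 1.44 CPM in CM (log2 2.64). Lyve1, a hyaluronan receptor of lymphatic and other endothelium, averaged 28.9 CPM in EC and 2.69 CPM in CM (log2 3.42), and Layn, another hyaluronan receptor, averaged 36.6 CPM in EC and 8.72 CPM in CM. Beside Cd44, the lower receptors were Hmmr (log2 -1.11), which also binds the mitotic spindle, and Stab2 (log2 -2.85). Stab2 was scarce in both, at 0.129 CPM in EC and 1.01 CPM in CM. Among link proteins and lecticans, Hapln3 was higher (log2 1.48) and Acan, the cartilage lectican, was lower at 0.111 CPM in EC and 0.617 CPM in CM. Tnfaip6, which transfers heavy chains onto hyaluronan, had a log2 fold change of 3.16, at 3.76 CPM in EC and 0.416 CPM in CM. Ptx3, a partner of Tnfaip6, had a log2 fold change of 4.09, while Habp4 was lower (log2 -1.57).

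Of the versican-cleaving proteases and their inhibitor, 5 of 8 were higher and 0 lower, among them Adamts1 (792 ± 33.7 CPM in EC and 324 ± 28.2 CPM in CM), Adamts5 and the inhibitor Timp3. All 7 tested versican-binding matrix genes were higher, led by fibronectin Fn1 at 6831 ± 132 CPM in EC and 599 ± 68.5 CPM in CM (log2 3.51), with the fibulins Fbln1 (1.88) and Fbln2 (1.64). Chondroitin sulfate synthesis had 11 of 16 higher and 2 lower. Csgalnact1 (log2 1.51) and the sulfotransferase Chst3 (log2 3.93) were higher, and Csgalnact2 was lower (log2 -1.44).

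Partners of Cd44 split. Of 8 genes, 5 were higher and 3 lower. Moesin (Msn), a linker from membrane proteins to actin, averaged 1165 ± 49.0 CPM in EC and 121 ± 24.8 CPM in CM (log2 3.27), and the related linker ezrin (Ezr) averaged 73.4 ± 0.233 CPM in EC and 341 ± 10.9 CPM in CM (log2 -2.21). Mmp14, a membrane protease that cuts Cd44, was higher (log2 3.14).

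**Figure D2:**
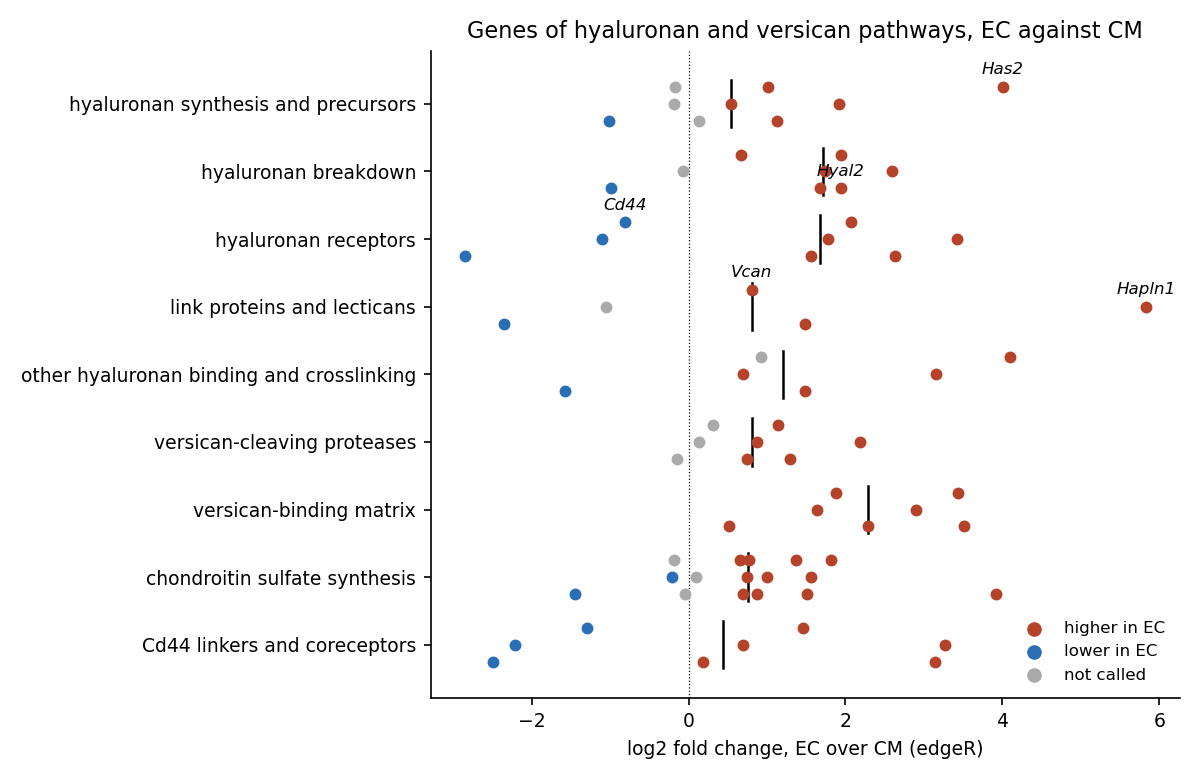
Log2 fold change, EC over CM, of every tested gene in 9 lists of hyaluronan and versican genes; points are genes, red where higher in EC, blue where lower and grey where not called, and black bars are list medians. Hapln1 lies farthest to the right of the labelled genes at 5.83, Has2 at 4.0, and Cd44 to the left at -0.81.

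The transcription starts of all 5 genes were open in both Tie2Cre EC ATAC libraries, and no GATA4 peak of either lineage lay over any of them. The share of all genes in either state was not counted, so neither can be read as particular to these 5. Over the Has2 start the EC ATAC peaks ranked at 20.3% and 16.6% of their lists by q value, and over the Hapln1 start at 7.98% and 6.42%, where a small percent is a strong peak. In the Cdh5-driven libraries a peak lay over the start in 3 of 3 ko and 3 of 3 het libraries for Hapln1, Vcan, Cd44 and Hyal2, but for Has2 in 0 of 3 ko and 1 of 3 het libraries. A region 1045 bp into Has2, chr15:56692154-56693501, had a peak in 3 of 3 ko and 3 of 3 het libraries. It ranked at 7.75% to 13.3% of those lists, and the EC ATAC peaks there ranked at 2.02% and 0.861%. RefSeq promoters (GRCm38.p6, the windows of 250 bases before to 50 after the start) were found for 4 of the 5 genes. Those of Hapln1 (chr13:89540386-89540685, + strand) and Cd44 (chr2:102901616-102901915, - strand) are shown, since they belong to the gene with the largest RNA difference of the 5 and to the gene with the only GATA match. Capitals mark, on either strand, the GATA forms AGATAA and then AGATAG, the further GATA forms TGATAA and also TGATAG, and the ETS forms AGGAAG as well as CGGAAG.
Hapln1: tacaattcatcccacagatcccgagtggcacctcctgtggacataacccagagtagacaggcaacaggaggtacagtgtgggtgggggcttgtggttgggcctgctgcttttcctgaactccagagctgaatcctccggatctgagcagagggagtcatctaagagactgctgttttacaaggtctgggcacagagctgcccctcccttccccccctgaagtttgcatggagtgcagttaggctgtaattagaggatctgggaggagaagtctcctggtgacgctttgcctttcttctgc
Cd44: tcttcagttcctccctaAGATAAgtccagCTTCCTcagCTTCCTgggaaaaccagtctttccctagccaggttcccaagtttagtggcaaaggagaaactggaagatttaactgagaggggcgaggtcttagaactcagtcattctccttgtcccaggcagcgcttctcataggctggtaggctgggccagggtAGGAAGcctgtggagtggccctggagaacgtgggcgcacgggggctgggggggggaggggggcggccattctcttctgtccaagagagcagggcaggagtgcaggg
The Cd44 window held 1 AGATAA match 233 bases before the start and 3 AGGAAG matches, the GATA and ETS matches not overlapping. The other 3 windows held 0 of the 4 GATA motifs, Vcan and Hyal2 each had 1 AGGAAG match, and Hapln1 had none of the motifs searched, CANNTG included. Over 32851 RefSeq promoters of that length, 29.8% held at least 1 of the 4 GATA motifs and 46.5% either ETS motif. A match is a description of the letters and not a site.

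Around the genes, GATA4 peaks merged into 38 regions. A region counted as selective for a lineage when 2 or 3 of its libraries had a peak there and the other lineage had 0, and as shared when each lineage had 2 or 3. Of the 38, 6 were Tie2-Cre-selective, 5 Tnnt2-Cre-selective and 8 shared, and 19 met none of these. Over all 49798 GATA4 regions those classes made up 12.2%, 18.2% and 13.1%. By gene window, 28.1% of the 24179 genes had a Tie2-Cre-selective region, 39.1% a Tnnt2-Cre-selective and 41.2% a shared one, and among the 5 genes these were 4, 3 and 4. Of the 38 regions 28 were open in both EC ATAC libraries, as were 69% of all GATA4 regions.

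The Has2 window on chromosome 15 held 6, 1 and 6 GATA4 peaks in Tie2-Cre libraries 1 to 3, against 4, 0 and 4 in Tnnt2-Cre libraries. Since list lengths differed, these were scaled: 3.12 ± 0.712 per 10000 peaks in Tie2-Cre and 1.02 ± 0.912 in Tnnt2-Cre (SD, n = 3 each), with no overlap (exact permutation test, two-sided p = 0.1, adjusted over 5 genes 0.25). A p of 0.1 is the smallest that 3 against 3 can give. Has2 was among the 4.05% of gene windows in which Tie2-Cre was higher in every library, and 5.26% had it lower. Those shares are over all 24179 windows, whatever their number of peaks, and the share among windows with as many peaks as Has2 was not counted. The 1 peak in Tie2-Cre library 2 counted as 3.66 per 10000, since that list is short. The difference of 2.10 per 10000 was 0.19 with windows of 20 kb (p = 0.5 by the same exact test), so it rested on peaks farther out, and it was 7.32 with lists of equal length. For GATA4 those lists hold 2734 peaks, so 1 peak there counts as 3.66 per 10000, and sizes are not comparable with those from whole lists.

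At Has2 the selective regions lay downstream of the gene. The Tie2-Cre-selective regions were chr15:56661098-56661772, 33111 bp from the start at its centre and thus beyond the gene's end, and chr15:56627437-56627727, 66964 bp from it. The nearer of them had −log10 q of 12.8 and 16.4 in Tie2-Cre libraries 1 and 3 and was open in both EC ATAC libraries, 3 of 3 ko and 3 of 3 het libraries. The farther one had an ATAC peak in 1 EC, 0 ko and 0 het libraries. Another downstream region, chr15:56623459-56623889, had −log10 q of 12 and 21.9 in Tie2-Cre libraries 1 and 3 and 6.69 in Tnnt2-Cre library 1. Upstream, 2 shared regions, chr15:56717431-56718010 and chr15:56720513-56721041, were centred at -23174 and -26231 bp relative to the start, and the nearer of them had a peak in all 3 Tie2-Cre libraries. The nearer had an ATAC peak in 2 EC, 1 ko and 0 het libraries, and the farther in 2 EC, 2 ko and 3 het libraries.

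Hapln1 had 3, 1 and 4 peaks in Tie2-Cre libraries, against 2, 0 and 2 in Tnnt2-Cre libraries. Its window overlaps that of Vcan on chromosome 13. Of the peaks in Tnnt2-Cre library 3, the one at chr13:89657438-89657729 lay in a Vcan exon and counted for both genes. Scaled, these were 2.30 ± 1.18 per 10000 peaks in Tie2-Cre and 0.511 ± 0.456 in Tnnt2-Cre (SD, n = 3 each), again without overlap (exact permutation test p = 0.1, adjusted 0.25). The difference of 1.79 was 0.19 with windows of 20 kb (exact p = 0.5), 3.66 with lists of equal length, 2.75 at −log10 q of at least 5, and 1.11 without Tie2-Cre library 2, whose short list makes its 1 peak count for much. The strongest was chr13:89493144-89493543, centred at -47293 bp relative to the start, with −log10 q of 33.3, 12.6 and 44.0 in Tie2-Cre libraries 1 to 3, which put it at 1.82%, 6.80% and 1.22% of those lists. Its peak in Tnnt2-Cre library 1 had 4.47, at 95.3% of that list, and Tnnt2-Cre libraries 2 and 3 had none. This was the region with the highest −log10 q in Tie2-Cre among the 38, and it missed the selective class because of that single weak peak. A neighbour, chr13:89496591-89496912, was Tie2-Cre-selective, and chr13:89539155-89539675, 961 bp before the start, was shared. All 3 were open in both EC ATAC libraries, 3 of 3 ko and 3 of 3 het libraries.

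The Vcan window held 0, 0 and 1 peaks in Tie2-Cre libraries and 2, 0 and 4 in Tnnt2-Cre libraries. Its mean was 0.129 ± 0.223 per 10000 peaks in Tie2-Cre and 0.730 ± 0.669 in Tnnt2-Cre (SD, n = 3 each; exact permutation test p = 0.4), and the groups overlapped. The difference of -0.602 was 0 with lists of equal length (exact p = 1) and -0.967 without Tnnt2-Cre library 2 (exact p = 0.1). Its 2 Tnnt2-Cre-selective regions were chr13:89760177-89760689, 17665 bp before the start, and chr13:89730028-89730344 in an intron. The upstream region had an ATAC peak in 2 EC, 0 ko and 1 het libraries, and the intronic region in 0 EC, 0 ko and 0 het libraries.

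Cd44 had 4, 0 and 5 peaks in Tie2-Cre libraries and 4, 0 and 7 in Tnnt2-Cre libraries, a mean of 1.40 ± 1.22 in Tie2-Cre and 1.35 ± 1.2 in Tnnt2-Cre per 10000 peaks (SD, n = 3 each; exact permutation test p = 1). The difference of 0.0459 took either sign under other settings, from -0.852 with windows of 100 kb to 2.44 with lists of equal length. It was the gene with the most shared regions, 3, all in introns. Of these chr2:102888555-102889170 had −log10 q of 9.45 and 24.0 in Tie2-Cre libraries 1 and 3 and 29.6 and 31.7 in Tnnt2-Cre libraries 1 and 3. A Tnnt2-Cre-selective region lay 3640 bp before the start at chr2:102905305-102906039, and a Tie2-Cre-selective one at chr2:102762837-102763119 in an intron of Slc1a2.

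Hyal2 sits in a dense gene cluster, so its window also covers its neighbours. It had 5, 1 and 4 peaks in Tie2-Cre libraries and 5, 2 and 6 in Tnnt2-Cre libraries, or 2.68 ± 1.07 per 10000 peaks in Tie2-Cre and 3.24 ± 2.01 in Tnnt2-Cre (SD, n = 3 each; exact permutation test p = 0.8). With lists of equal length the difference was -6.10, lower in every Tie2-Cre library (exact p = 0.1), against -0.562 with whole lists. How many of all gene windows separate with equal lengths was not counted. The Tie2-Cre-selective region nearest the gene was chr9:107566851-107567090, 2073 bp before its start. The strongest Tnnt2-Cre-selective region, chr9:107619199-107619818, had −log10 q of 31.8, 10.3 and 34.7 in Tnnt2-Cre libraries 1 to 3 and lay in an exon of Gnai2.

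**Figure D3:**
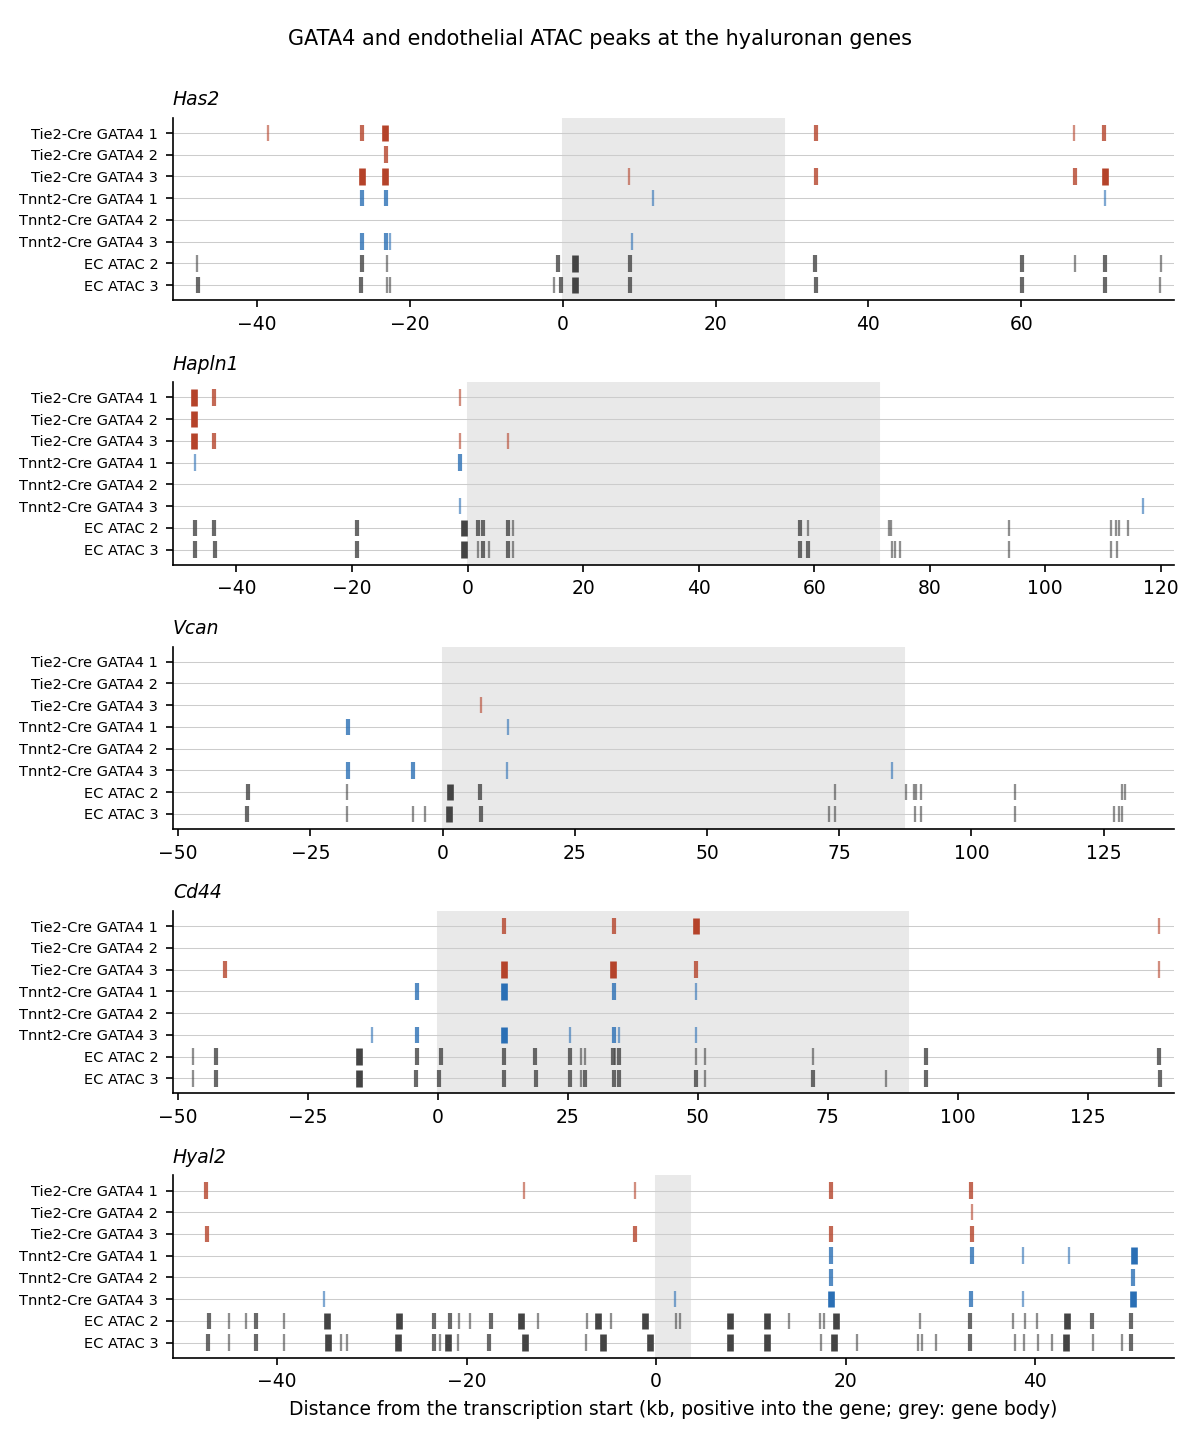
GATA4 peaks in each Tie2-Cre and Tnnt2-Cre library and ATAC peaks in each EC library around the 5 genes; the x axis is the distance from the transcription start in kb, positive into the gene, the gene body is grey, and each bar is a peak, wide where it ranked in the top 10% of its list, medium to 50% and thin below that. Hapln1 shows a strong Tie2-Cre column 47 kb before the start, and Vcan shows mostly Tnnt2-Cre peaks.

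The ko and het ATAC peaks merged into 75 regions, of which 45 were shared by the genotypes and 36 were present in all 6 libraries. Of the 75, 0 were ko-selective and 3 were het-selective; over all 128146 regions 1.72% were ko-selective, 3.05% het-selective and 45.5% shared. By gene window 14.6% of genes held a ko-selective region and 24.4% a het-selective one. The 3 here were at Has2, Hapln1 and Hyal2.

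The Has2 region, chr15:56678754-56679409, lay in an intron, with a peak in 0 of 3 ko libraries and 3 of 3 het libraries, at −log10 q of 1.11, 7.10 and 0.448 in het libraries 2 to 4. Those are weak peaks, at 96.6%, 49.5% and 99.2% of their lists, and neither Tie2Cre EC ATAC library had a peak there. The regions at Hapln1 (chr13:89543082-89543348) and Hyal2 (chr9:107569329-107569636), both intronic, had a peak in het libraries 2 and 3 only among the ko and het libraries. Each was open in both Tie2Cre EC ATAC libraries. The Hyal2 region began 166 bp after the start, beside a region over the start with a peak in 3 of 3 ko and 3 of 3 het libraries.

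With whole lists and windows of 50 kb, ko and het overlapped at every gene after scaling to list length. Has2 had 6, 5 and 7 peaks in ko libraries 2 to 4, against 8, 8 and 7 in het libraries, or 0.858 ± 0.346 per 10000 peaks in ko and 0.965 ± 0.0780 in het (SD, n = 3 each; exact permutation test p = 0.7). Hapln1 had 7, 6 and 5 in ko and 10, 7 and 7 in het libraries, or 0.818 ± 0.0718 per 10000 in ko and 0.999 ± 0.135 in het (SD, n = 3 each; exact permutation test p = 0.2). Its difference of -0.181 became a full separation, lower in ko (exact p = 0.1), at −log10 q of at least 5 (-0.254), with lists of equal length (-0.299) and with windows of 100 kb (-0.166). Vcan, Cd44 and Hyal2 had differences, ko minus het, of -0.135, 0.0358 and 0.0511 per 10000 with exact p-values of 0.5, 0.9 and 0.9, and Vcan separated with windows of 100 kb (-0.239, lower in ko, exact p = 0.1). The Hapln1 and Vcan windows overlap and share ATAC regions, so their separations are not independent of each other. The share of all gene windows that separate under those other settings was not counted, so they cannot be read as particular to these genes. With whole lists and windows of 50 kb the adjusted p was 0.9 for each of the 5, and all 5 overlapped between genotypes. Under those settings 4.02% of windows genome-wide were higher and 2.41% lower in ko in every library. A missing difference in peak number does not show that accessibility is equal.

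**Figure D4:**
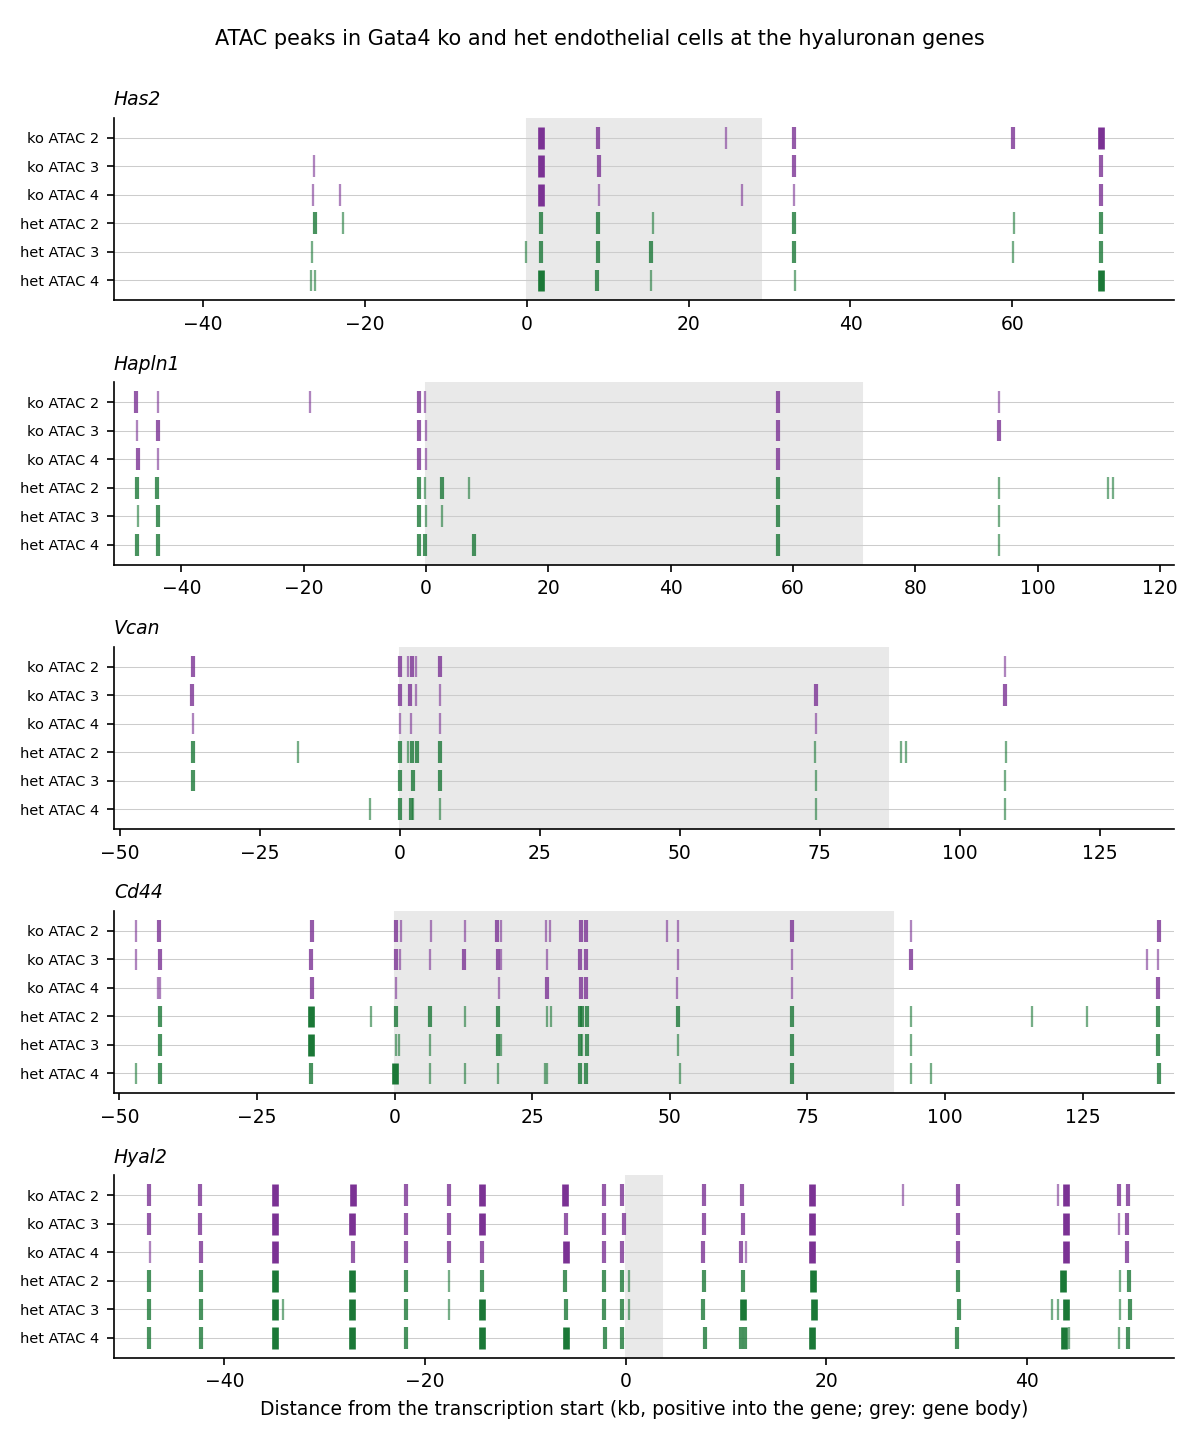
ATAC peaks in 3 ko and 3 het libraries of sorted endothelial cells around the 5 genes, on the distance axis in kb from the transcription start, with the gene body grey and bars widened by rank as in the GATA4 map. Of the 75 merged regions 36 have a peak in all 6 libraries; the Has2 intron has a column 15 kb into the gene in het libraries alone.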

How the data were processed

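The RNA values are read counts per gene, deposited by the authors and made with featureCounts 1.6.3 by strand, per the file headers; the submitters' processing notes also name MACS2 2.2.4, STAR 2.7.3a, deepTools 3.3.1, both Bowtie2 2.2.9 and Bowtie 1.1.1, and the build mm10, with no roles. Peaks were deposited as 1 list per library, each peak with a fold over background (a ratio) and −log10 p and −log10 q values, per the deposited files; these ranked or filtered peaks inside their own list and nothing else. Use of a control library in peak calling is not given in the sources used. The 5 genes and all lists were chosen with earlier results of these data known.

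Counts were tested with edgeR 4.0.16 in R 4.3.3 (TMM scaling, the filterByExpr filter, the quasi-likelihood test and Benjamini-Hochberg adjustment at 0.05), leaving 14851 genes. Peaks sharing at least 1 bp were merged in Python 3.11.15 (numpy 2.4.6), and windows were the gene body and 50 kb on either side, over 24179 genes, leaving out 144 on several chromosomes or strands and 98 whose copies lie apart. Figures used matplotlib 3.10.9. Depth was 21682362 to 48393473 counted reads; replicate pairs all differed by more than sampling noise, with chi-square over degrees of freedom at 7.84 in EC and 13.4 to 33.9 in CM. The edgeR step and the region classes were tested on simulated data. Deviations of GATA4 libraries with the same replicate number correlated at 0.119, 0.199 and 0.215. Libraries 1 and 3 also correlated across numbers (0.136 and 0.160), so whether the numbers pair the libraries was not settled. Named genes were the 5 members, up to 3 called genes per list by smallest adjusted p and the 2 nearest profiles per member; markers were named from their lists, and every other gene named (such as Has1, Has3, Has2os, Cemip, Hmmr, Stab2, Hyal3, Sema3b, Cacna2d2, Gnai2 and Slc1a2) was chosen after its values were seen. Alternatives were other scalings (RLE, upper quartile, total count), Rn45s left out, no filter, DESeq2 1.42.0, a 2-fold test, peaks with −log10 q of at least 5, lists of equal length, a peak covering 0.5 of its region, a peak in all 3 libraries, windows of 20 and 100 kb, the nearest start, each library left out in turn and the replicate block.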

Additional observations from a re-analysis of the deposited data

How the results depend on the processing

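All 5 RNA differences kept their direction under every alternative run, and log2 fold changes stayed between 3.94 and 4.08 (Has2), 5.78 and 5.89 (Hapln1), 0.76 and 0.85 (Vcan), -0.88 and -0.73 (Cd44) and 1.88 and 1.99 (Hyal2). With a 2-fold threshold Vcan (0.81) and Cd44 (-0.81) were no longer called, and 2569 genes were called higher and 2675 lower. With the replicate block the RNA values were 4.0, 5.78, 0.76, -0.73 and 1.97, and it changed no call. The RNA numbers did not pair (r -0.009 and -0.004). For ko and het ATAC the same-number correlations were 0.306, 0.032 and 0.287, which did not settle whether the numbers pair. For GATA4 peaks per 10000, the block gave p = 0.25 for Has2 and Hapln1 by an exact sign-flip test, the smallest it can give, and the block changed no other call.

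Peak results depended more on the settings. Per 10000 GATA4 peaks, lists of equal length gave 0 for Vcan, 2.44 for Cd44 and -6.10 for Hyal2, and Cd44 was -0.400 with 20 kb and -0.852 with 100 kb windows. Leaving out each library gave -0.630 to 0.744 for Cd44 and -1.2 to 0.595 for Hyal2. For ko minus het, Vcan was 0.0609 and Cd44 -0.185 at −log10 q of at least 5; Has2 was 0.120, Cd44 -0.359 and Hyal2 -0.120 with equal lengths; and Cd44 was -0.0490 with 20 kb and -0.0215 with 100 kb. Ko fell below het in every library for Hapln1 at −log10 q of at least 5 (-0.254), with equal lengths (-0.299) and with 100 kb (-0.166), and for Vcan with 100 kb (-0.239). The windows of Hapln1 and Vcan overlap, so these separations share peaks. The share of all gene windows that separate under these settings was not counted. Leaving out each library gave -0.307 to 0.00560 for Has2, -0.128 to 0.215 for Cd44 and -0.246 to 0.207 for Hyal2.

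The Tie2-Cre-selective count of 6 was 0 with a peak required in every library, 2 with 20 kb and 2 by nearest start. The Tnnt2-Cre-selective count of 5 was 2 with equal lengths, 1 with every library, 3 with 20 kb, 9 with 100 kb and 3 by nearest start. The shared count of 8 was 0 with equal lengths, 5 with a 0.5 cover, 0 with every library and 5 with 20 kb. Leaving out each library gave 0 to 8, 1 to 5 and 1 to 8: without Tie2-Cre replicate 1 or 3 no Tie2-Cre-selective region was left, and without Tnnt2-Cre replicate 1 or 3 a single Tnnt2-Cre-selective one, since the second libraries are short. Leaving out both second libraries, chosen after seeing the data, gave 6, 5 and 8. The ko-selective count of 0 was 1 at −log10 q of at least 5, 1 with equal lengths and 1 with a 0.5 cover, and 0 to 2 over libraries left out; the het-selective count of 3 was 1 with equal lengths, 1 with every library and 5 with 100 kb, and 1 to 4 over libraries left out. Where a value moved, the cause was not tested unless named. No depth is known for the peak lists.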

Other observations

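The Hyal2 window covers other genes, some of which differed between EC and CM. Hyal3, a second hyaluronidase of the cluster, averaged 0.743 CPM in EC and 0.186 CPM in CM. Gnai2, an inhibitory G protein subunit whose exon holds the strongest Tnnt2-Cre-selective region of the window, was higher in EC (660 CPM in EC and 409 CPM in CM, log2 0.69). Sema3b, a secreted semaphorin, was lower in EC (2.74 CPM in EC and 13.2 CPM in CM, log2 -2.25), as was the calcium channel subunit Cacna2d2 (4.47 CPM in EC and 46.4 CPM in CM, log2 -3.38). By edgeR's quasi-likelihood test with Benjamini-Hochberg adjustment over all genes, the adjusted p was 0.0107 for Hyal3, 7.14e-06 for Gnai2, 3.45e-07 for Sema3b and 6.03e-09 for Cacna2d2; these genes were chosen after their values were seen.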
